A study of Mus musculus with 4 samples.

Results

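Wide intervals of Sp6 chromatin immunoprecipitation in dental mesenchyme, the tissue that gives rise to odontoblasts and pulp, are described here. An interval is a stretch of the genome in which the authors' peak caller found an excess of sequenced fragments. The 290 intervals were selected by length, at 1200 bp or more in the mesenchyme Sp6 list, and by touching no interval of either input list. They are part of 11436 mesenchyme Sp6 intervals, of which 298 reached that length and 8 of these touched an input interval. The 4 groups were sampled from C57BL/6 mice, with 1 library each: dental mesenchyme with Sp6 antibody, dental epithelium with Sp6 antibody, mesenchyme input and epithelium input. Both tissues came from 30 molars of newborns at P1 (postnatal day 1), and the antibody was made in house. The libraries have no replicates, their read totals are unknown, and no scaling between them is stated. A library from tissue that lacks Sp6 was not analysed here, so no background of the antibody was measured. Chromatin data do not show which genes are expressed, so the tissue labels were not checked against marker genes.

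Sp6, or epiprofin, belongs to the SP and KLF proteins, whose zinc fingers contact GC-rich DNA such as the GC box and the CACCC box. It is best known from tooth and hair development, and mice without it form abnormal enamel and extra teeth. CpG islands are GC-rich stretches that lie at the starts of many genes, above all of those used in most cell types. A transcription factor on a short site usually gives a narrow interval.

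Of the 290 wide intervals, 238 stand in the authors' table that pairs intervals with genes. A listed gene start was covered by 86 of these 238, against 5.84% of all annotated mesenchyme intervals. Longer intervals have more room for a start. The promoters of 5 such genes are shown to set CpG-rich starts beside CpG-poor ones. Each runs from 250 bases before to 50 bases after the start, from RefSeq on GRCm38.p6, a later build than the mm9 of the intervals. Capitals mark matches to the GC box (GGGCGG or CCGCCC) and the CACCC box (CACCC or GGGTG), searched on both strands. Neighbouring matches can overlap. Id3 lies at chr4:136143572-136143871 on the plus strand, Msx2 at chr13:53472731-53473030 on the minus strand and Fos at chr12:85473640-85473939 on the plus strand. Ambn lies at chr5:88455741-88456040 on the plus strand and Amelx at chrX:169187160-169187459 on the minus strand.
Id3: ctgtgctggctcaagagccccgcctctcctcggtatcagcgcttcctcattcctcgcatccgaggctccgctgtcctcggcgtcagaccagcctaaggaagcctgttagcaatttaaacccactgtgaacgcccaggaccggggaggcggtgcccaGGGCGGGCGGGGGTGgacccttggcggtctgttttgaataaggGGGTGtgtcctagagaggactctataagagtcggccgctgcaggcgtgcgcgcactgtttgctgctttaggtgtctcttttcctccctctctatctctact
Msx2: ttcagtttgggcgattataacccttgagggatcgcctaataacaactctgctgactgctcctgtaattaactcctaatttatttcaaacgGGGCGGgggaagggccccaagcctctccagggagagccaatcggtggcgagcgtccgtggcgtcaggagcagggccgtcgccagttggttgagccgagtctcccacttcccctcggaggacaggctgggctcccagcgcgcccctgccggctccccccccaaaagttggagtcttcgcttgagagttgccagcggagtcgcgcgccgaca
Fos: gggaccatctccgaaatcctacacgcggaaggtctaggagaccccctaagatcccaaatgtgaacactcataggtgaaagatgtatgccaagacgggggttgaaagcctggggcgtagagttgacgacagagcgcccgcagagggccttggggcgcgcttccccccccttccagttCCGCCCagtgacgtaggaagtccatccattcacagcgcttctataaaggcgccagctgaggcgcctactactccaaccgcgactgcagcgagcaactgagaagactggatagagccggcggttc
Ambn: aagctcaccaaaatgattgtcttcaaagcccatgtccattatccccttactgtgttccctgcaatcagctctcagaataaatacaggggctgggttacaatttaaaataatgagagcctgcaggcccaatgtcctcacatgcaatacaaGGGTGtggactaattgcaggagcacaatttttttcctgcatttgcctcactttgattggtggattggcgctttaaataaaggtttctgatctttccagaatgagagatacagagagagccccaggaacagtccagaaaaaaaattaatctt
Amelx: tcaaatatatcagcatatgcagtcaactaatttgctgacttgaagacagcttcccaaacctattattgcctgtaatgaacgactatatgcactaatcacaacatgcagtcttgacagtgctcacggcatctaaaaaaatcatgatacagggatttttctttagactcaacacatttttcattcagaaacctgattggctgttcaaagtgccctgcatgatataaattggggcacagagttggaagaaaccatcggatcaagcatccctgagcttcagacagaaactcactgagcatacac

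The first 3 of these promoters hold 19 CpG dinucleotides (Id3), 22 (Msx2) and 20 (Fos). The promoters of the enamel genes hold 1 (Ambn) and 3 (Amelx). Id3 has 2 GC boxes and 2 CACCC boxes, Msx2 and Fos have 1 GC box and no CACCC box, Ambn has 1 CACCC box, and Amelx has neither. RefSeq promoters were found for 72 of the 87 matched genes with a start under a wide interval, 88 promoters in all. Promoters were matched by gene name and not by position, so some may lie outside the interval. Several promoters of the same gene are not independent. A GC box was present in 53 of the 88 (60.2%, Wilson 95% interval 49.8 to 69.8%). The share was 63.1% of 336 promoters of genes with a start under a narrower interval, and 35.7% of all 32851 promoters in the table. The CACCC box was present in 60.2% of the promoters of the wide set, against 59.5% of the narrower set and 57.5% of all. The median number of CpG dinucleotides was 22 in the wide set, 21 in the narrower set and 7 in all promoters. By these counts the promoters of the wide set were close to those of the narrower set. Both sets held more CpG dinucleotides than promoters in general.

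The wide intervals ran from 1200 to 9745 bp, with a median of 1442.5 bp (interquartile range 1276.5 to 1722 bp), and covered 492 kb in all. The 11132 narrower intervals off the inputs had a median of 622 bp. Length and the mesenchyme signal come from the library that selected the intervals, so they are given as a description. The peak value is the authors' signal in an interval's highest bin. Its median was 35 in wide intervals with a listed gene (interquartile range 24 to 58.75, range 14 to 394) and 34 in the 6963 narrower ones (25 to 50). The average value, their signal over all bins of an interval, had a median of 13.9 in wide intervals and 14.0 in narrower ones. Wide intervals were thus longer at about the same median signal, but high peak values were more frequent among them. A peak value of 100 or more was found in 30 of the 238 wide and 374 of the 6963 narrower intervals. Wide intervals held 8.26% of the signal summed over bins in 3.30% of the annotated intervals.

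The ratio of peak to average value had a median of 2.49 in wide intervals (order-statistic 95% interval 2.33 to 2.70). Narrower intervals weighted to the same peak values, in 5 strata cut at the wide intervals' own quintiles, also had 2.49. The equality of the medians covered a spread across strata. At peak values of 72 or more the median ratio was 4.37 in 48 wide intervals and 3.36 in 842 narrower ones. At peak values of 21 or less it was 1.85 in wide intervals and 1.83 in narrower ones. In the top stratum wide intervals thus had a higher median ratio, but peak values were not matched within it. A peak value of 100 or more was held by 30 of its 48 wide and 374 of its 842 narrower intervals. The stratum's median average values were close, at 29.2 in wide and 29.6 in narrower intervals. Low wide intervals had about the ratio of their narrower counterparts. In Msx2 the ratio reached 6.91, and in Fos it was 1.65.

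**Figure D1:**
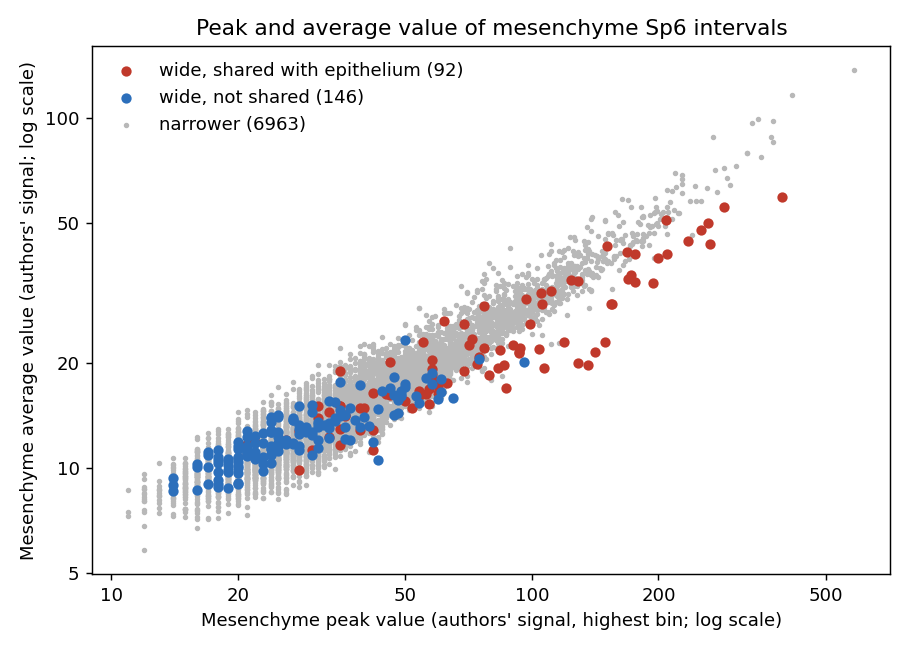
Peak value against average value of mesenchyme Sp6 intervals with a listed gene, both on log scales in the authors' signal; red points are wide intervals shared with epithelium, blue points wide intervals that are not, and grey points the 6963 narrower intervals. At peak values of 42 to 71 the median average value was 16.5 in wide and 18.6 in narrower intervals. At 72 or more the medians were 29.2 and 29.6, and at low peak values the wide points lie among the narrower ones.

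CpG islands and gene starts were more frequent in wide intervals than in narrower ones of similar peak value. A CpG island lay in 114 of the 238 annotated wide intervals (47.9%, Wilson 95% interval 41.6 to 54.2%), against 7.64% of narrower intervals weighted to the same peak values. Over all 7211 annotated mesenchyme intervals the share was 8.45%. Longer intervals have more room for an island, but wide intervals also held 30.0 islands per 100 kb covered, against 12.2 in the weighted narrower intervals. The difference held in every stratum of peak value. In the lowest, 63.8% of wide intervals and 23.7% of narrower ones had an island, and in the highest the shares were 16.7% in wide and 0.713% in narrower intervals.

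The peak centre lay within 5 kb of a listed gene start in 146 of 238 wide intervals (61.3%, 55.0 to 67.3%), against 22.9% of the weighted narrower intervals and 23.6% of all annotated ones. A gene start was covered by 36.1% of the wide intervals, against 5.30% of the weighted narrower intervals and 5.84% of all annotated ones. Longer intervals have more room for a start, and this share was not worked out per kb covered. Position in the gene differed too. The centre lay inside the nearest listed gene in 52.1% of wide intervals and 73.3% of narrower ones, and upstream of it in 34.0% of wide and 16.8% of narrower intervals. With 1 library there is no replicate error, and the intervals around these shares cover counting error only. Neighbouring regions are not independent replicates, so no test was made.

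**Figure D2:**
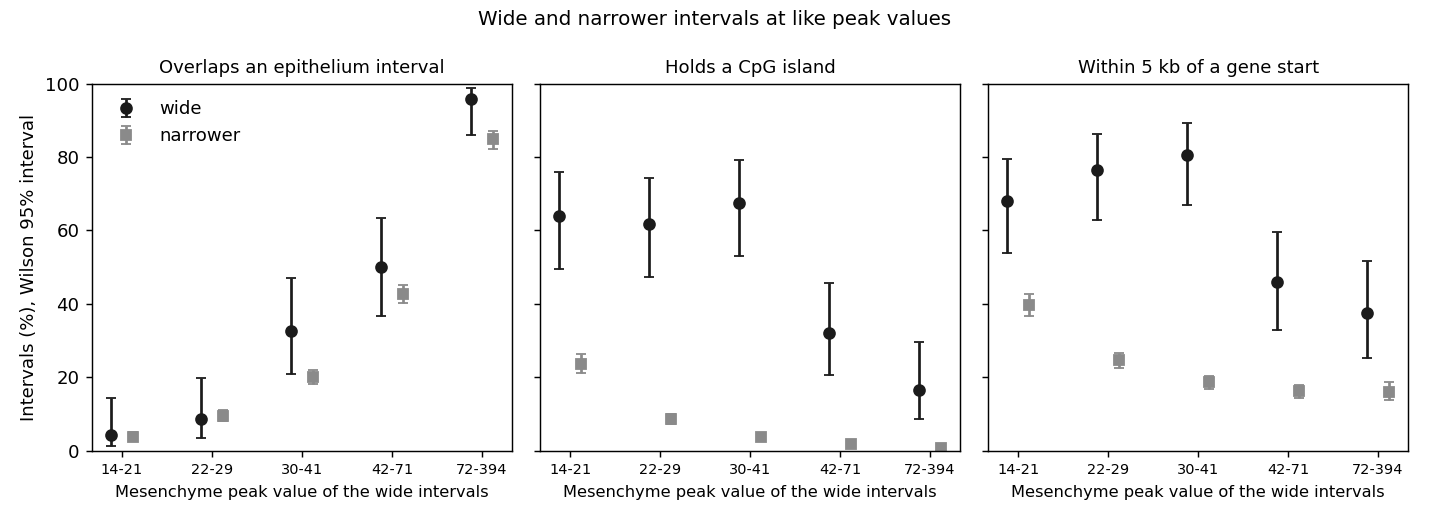
Share of intervals (%, with Wilson 95% intervals) that overlap an epithelium interval, hold a CpG island or lie within 5 kb of a gene start, for wide (circles) and narrower intervals (squares) in 5 strata of mesenchyme peak value. Sharing with epithelium climbs with peak value in both sets, from 4.26% to 95.8% of wide intervals, while the CpG island and gene start shares of wide intervals stay above those of narrower ones in every stratum.

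Wide intervals at gene starts reached about as far downstream as upstream, and narrower ones reached farther upstream. The start and direction of a gene were worked out from the authors' signed distances, and 83 start-covering wide intervals had a known direction. They extended a median of 830 bp downstream of the start and 821 bp upstream. The 290 narrower intervals that covered a start extended 264 bp downstream and 453.5 bp upstream. More of the interval lay downstream than upstream in 47 of the 83 wide intervals (56.6%, 45.9 to 66.8%) and in 74 of the 290 narrower ones (25.5%, 20.8 to 30.8%). The peak centre lay downstream of the start in 49.4% of the wide (38.9 to 59.9%) and 30.7% of the narrower intervals. Wide intervals were selected for length, which bears on how far they reach on either side. At Chd2, a chromatin remodeller gene, the interval reached 83 bp upstream and 4285 bp downstream of the start. At Gja1, the gene of connexin 43, it reached 222 bp upstream and 3169 bp downstream, and its centre lay 2783 bp into the gene. The interval over the start of Scrn2 ran the other way, 4140 bp upstream and 482 bp downstream.

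**Figure D3:**
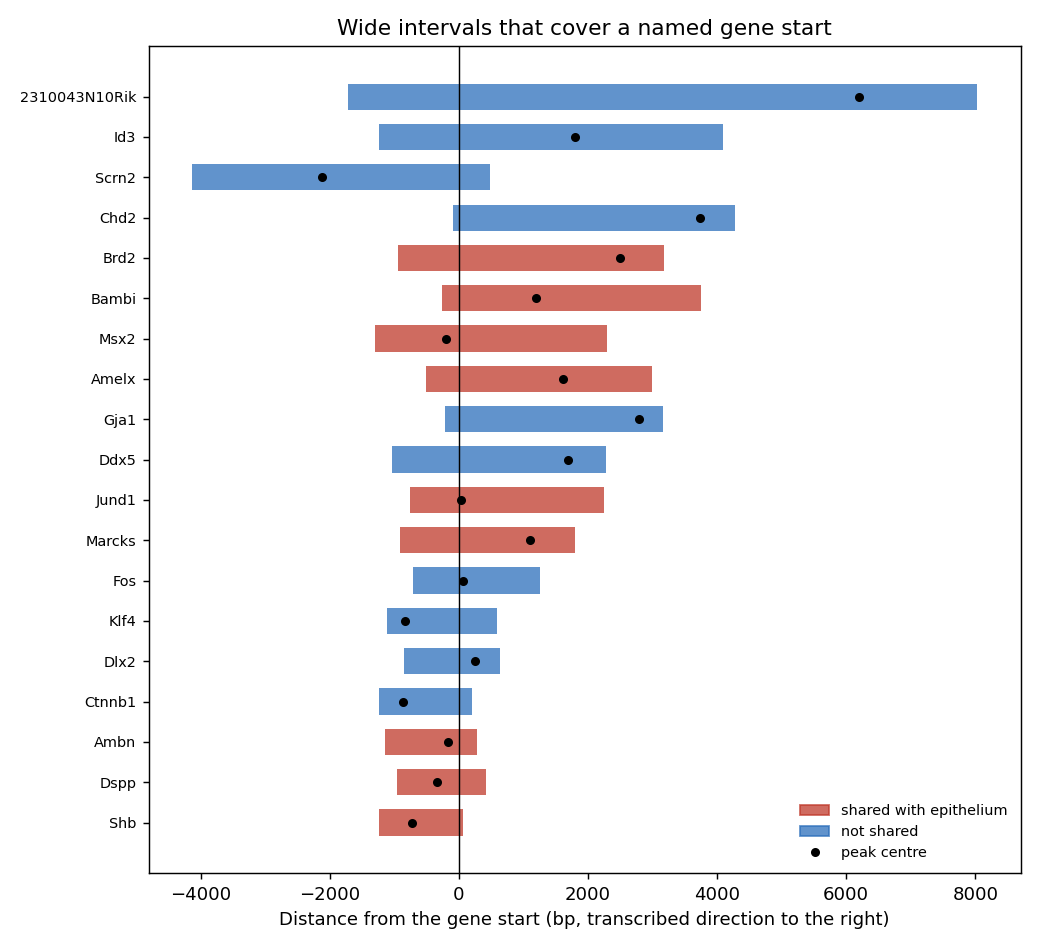
Extent of wide intervals that cover the start of a gene named by the selection rule, in bp from the start with the transcribed direction to the right; bars are red where an epithelium interval overlaps and blue where none does, and dots mark the peak centre. Apart from Scrn2, the longest bars reach mostly downstream, as at Id3 (1243 bp upstream, 4087 bp downstream) and Bambi (256 bp upstream, 3756 bp downstream), while those at Shb, Ambn and Dspp lie mostly upstream.

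The longest interval, 9745 bp (chr19:5794687-5804431), had a peak value of 56, an average value of 18.1 and no epithelium interval. The authors' table lists it for 2310043N10Rik, a synonym of the long non-coding RNA gene Neat1. The same name is listed for the 4322 bp interval at chr19:5843080-5847401, which lies 38648 bp past the end of the longest one and is also listed for the nearer gene 1200004M23Rik. RefSeq places another long non-coding RNA gene, Malat1, next to Neat1, and which of them lies under the longest interval could not be told from the names alone.

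BMPs are secreted ligands that pattern the tooth germ, and their receptors act through SMAD proteins on genes such as Id1, Id3 and Msx2. Of 38 genes in the BMP and TGF-beta list, 5 were listed for a wide interval (13.2%), against 254 of 21900 protein-coding genes (1.16%). Among genes with any mesenchyme interval the shares were 21.7% of 23 list genes and 5.49% of 4623 protein-coding genes. This list and the other gene lists were chosen with earlier results of these data known, so their shares are given as a description. Id3, which encodes an inhibitor of helix-loop-helix factors, had an interval of 5330 bp (chr4:135698495-135703824) with a peak value of 33 and 2 CpG islands. Its relative Id1 had 4828 bp (chr2:152560640-152565467), a peak value of 32 and 3 CpG islands. Neither had an epithelium interval, and both intervals ran over the start and past the gene, since their centres were listed as downstream of it.

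The other 3 genes of the list with a wide interval encode inhibitors and receptors. Bambi, a decoy receptor for BMPs, had 4012 bp (chr18:3507700-3511711) with a mesenchyme peak value of 141 and an epithelium one of 64. A second Bambi interval of 1208 bp had a peak value of 53 and no epithelium counterpart. Smad6, an inhibitory SMAD, had 3 wide intervals of 2191, 1822 and 1222 bp, with peak values of 31, 93 and 30. The 2191 and 1822 bp intervals both overlapped an epithelium interval of 1379 bp with a peak value of 38, and the 1222 bp interval overlapped none. Tgfbr2, a TGF-beta receptor gene, had 2477 bp inside the gene with a peak value of 44 and none in epithelium. The other 18 genes of the list with a mesenchyme interval, Bmp2, Bmp4 and Smad7 among them, had none that was wide.

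Homeobox genes of the jaw and tooth had 12 wide intervals in 4 of 25 genes (16%, against 1.16% of protein-coding genes). Among genes with any mesenchyme interval, 40% of 10 list genes had a wide one, against 5.49% of 4623 protein-coding genes. Msx2, a homeobox gene of tooth and skull, had 4 wide intervals out of 5 in all, which together covered 11.6 kb of a 13.0 kb stretch (chr13:53556421-53569449). The interval over its start was 3588 bp long, with a mesenchyme peak value of 136 and an epithelium one of 37. The next, of 4501 bp, had a peak value of 35 and no epithelium interval. The outer intervals, of 2095 and 1414 bp, had peak values of 75 and 41. The signal at Msx2 was thus highest at the start and next highest 8.85 kb past it, and epithelium intervals were found at these 2 places.

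At Dlx5, a distal-less homeobox gene, and the antisense transcript listed as Dlx6as, 6 wide intervals covered 12.0 kb of 21.3 kb (chr6:6811459-6832724). Their peak values ran from 21 to 65. The interval over the Dlx5 start, of 2545 bp with a peak value of 39, was the member of this run with an epithelium interval, whose peak value was 19. Dlx3 had 3 wide intervals with peak values of 20, 21 and 25, none shared. Dlx2 had 1485 bp over its start with a peak value of 33, also not shared. Msx1 and Lhx6 had mesenchyme intervals but no wide ones.

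The gene of Sp6 itself was listed for 3 wide intervals out of 7. The interval centred 2115 bp upstream of its start (chr11:96871740-96873714) was 1975 bp long with a mesenchyme peak value of 149 and an epithelium one of 56. The other two were listed also for Scrn2 and had no epithelium interval. The interval past the end of Sp6, 14.3 kb from its start, was 4622 bp long with a peak value of 29. The interval inside Sp6, 10.9 kb from its start, was 1727 bp long with a peak value of 21. In the SP and KLF list Klf4 and Klf6, zinc-finger genes of the same family, also had a wide interval, with peak values of 17 and 22. With Sp6, 3 of 26 genes had one (11.5%, against 1.16% of protein-coding genes). Among genes with any mesenchyme interval, 30% of 10 list genes had a wide one, against 5.49% of 4623 protein-coding genes.

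Many genes in the list of AP-1 and other immediate early genes are switched on within minutes of a signal. Of the 21 genes in it, 6 were listed for a wide interval (28.6%, against 1.16% of protein-coding genes). Among genes with any mesenchyme interval, 60% of 10 list genes had a wide one, against 5.49% of 4623 protein-coding genes. The 6 were Fos, Fosb, Junb and Jund, which encode AP-1 subunits, the zinc-finger gene Egr1, and Zfp36, whose protein destabilises mRNAs. Their peak values were low, from 19 to 47, and 5 of the 6 held a CpG island. Jund had the longest, at 3002 bp (chr8:73222091-73225092), with a mesenchyme peak value of 35 and an epithelium one of 15. The other 5 had no epithelium interval. The interval at Fos (chr12:86814147-86816101) reached 705 bp upstream and 1250 bp downstream of the start.

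The RNA helicase gene Ddx5, among the widest, had 3317 bp over its start with a peak value of 27. A further 6 genes were chosen for naming after their values were seen and stand for no counted group. Wide intervals covered the starts of the translation factor genes Eif4a1 (2593 bp, peak value 25), Eif4a2 (1658 bp, 22) and Eef1a1 (1671 bp, 24), and the splicing factor gene Sfrs3 (2332 bp, 20). The ribosomal protein gene Rpl3 had 1253 bp over its start with a peak value of 27. The ubiquitin gene Ubb had 1549 bp over its start with a peak value of 30, and 2321 bp centred 3528 bp from the start with a peak value of 23. None of these 7 genes had an epithelium interval under its wide interval. An interval of 3093 bp with a peak value of 27 and a CpG island lay 6.72 kb upstream of the microRNA gene listed as Mirn23a, and it was not shared. Marcks, the gene of a protein that binds actin and membranes, had 2701 bp over its start with a peak value of 21 in mesenchyme and 23 in epithelium. Of chromatin genes, Brd2, a reader of acetylated histones, had 4132 bp with a mesenchyme peak value of 42 and an epithelium one of 23.

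Genes of tooth matrix had wide intervals with and without sharing. In the list of enamel matrix and maturation genes 5 of 26 had one (19.2%, against 1.16% of protein-coding genes). Among genes with any mesenchyme interval, 27.8% of 18 list genes had one, against 5.49% of 4623 protein-coding genes. The 5 genes had 10 wide intervals, of which 6 were shared and 1 held a CpG island. The 5 included Slc4a4, a transporter gene, and Dlx3, a homeobox gene whose 3 wide intervals were not shared and held that island. Amelx, the gene of amelogenin, lay under 3 wide intervals of 3504, 2607 and 2134 bp, with peak values of 35, 31 and 28 in mesenchyme and 20, 28 and 17 in epithelium. In all 3 the peak centre lay outside the epithelium interval. Ambn, the gene of ameloblastin, had 1429 bp over its start (chr5:88883891-88885319) with a mesenchyme peak value of 93 and an epithelium one of 42. A second Ambn interval past the gene end had a peak value of 26 and none in epithelium. Enam, the gene of enamelin, had 2256 bp past its end with a mesenchyme peak value of 22 and an epithelium one of 21. The peak centre of this Enam interval also lay outside the epithelium interval.

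Of 20 odontoblast and bone matrix genes, Dspp and Col1a1 had a wide interval (10%, against 1.16% of protein-coding genes). Among genes with any mesenchyme interval, 15.4% of 13 list genes had a wide one, against 5.49% of 4623 protein-coding genes. Dspp, the gene of dentin sialophosphoprotein, had 1375 bp over its start (chr5:104598781-104600155) with a mesenchyme peak value of 59 and an epithelium one of 24. Col1a1, the gene of a type I collagen chain, had 4 wide intervals out of 8, with peak values from 17 to 31 and none shared. Neither gene had a CpG island in its wide intervals.

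In the FGF and sonic hedgehog list Ptch1 and Fgfr1 were listed for a wide interval, 2 of 28 genes (7.14%, against 1.16% of protein-coding genes). The interval listed for Fgfr1 had a peak value of 19 and lay past the gene, 67.6 kb from its start. It was also listed for D030041N04Rik, whose start was nearer, at 11.1 kb. Ptch1, the receptor for sonic hedgehog, had 4 wide intervals with peak values of 71, 27, 22 and 14, and the highest overlapped an epithelium interval with a peak value of 22. In the WNT list Kremen1 and Ctnnb1 had one, 2 of 50 genes (4%). Kremen1, a receptor for the inhibitor Dkk1, had a mesenchyme peak value of 69 and an epithelium one of 38, and Ctnnb1, the beta-catenin gene, had 36 in mesenchyme and none in epithelium. In the epithelial transcription factor list 2 of 20 genes had one. They were Satb1, with a mesenchyme peak value of 168 and an epithelium one of 60, and Trp63, with 31 in mesenchyme and none in epithelium. In the chromatin and long non-coding RNA list 3 of 19 matched genes had one, and in the actin and YAP target list 1 of 22, Cnn2, had one. Among genes with any mesenchyme interval, 15.4% had a wide one in the FGF and hedgehog list and 9.52% in the WNT list. The shares were 18.2% in the epithelial, 27.3% in the chromatin and 7.69% in the actin list, against 5.49% of 4623 protein-coding genes.

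**Figure D4:**
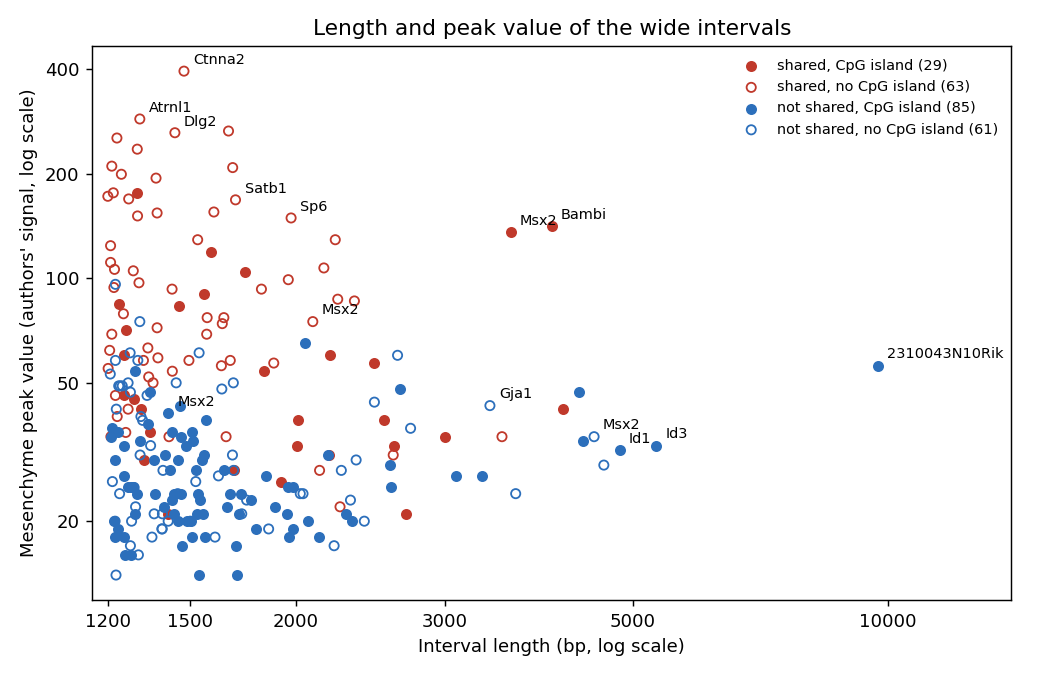
Length against mesenchyme peak value of the 238 wide intervals with a listed gene, both on log scales; red marks overlap an epithelium interval and blue ones do not, filled marks hold a CpG island and open ones do not. The highest peak values, as at Ctnna2, Atrnl1 and Dlg2, belong to intervals not far above 1200 bp, shared and without an island. Long intervals such as Id3 (33) and Id1 (32) lie near the median of 35. Bambi (4012 bp, 141) and Msx2 (3588 bp, 136) are both long and high, and each holds an island.

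The wide intervals of highest signal had fewer CpG islands and gene starts than wide intervals as a whole. All 30 with a listed gene and a peak value of 100 or more overlapped an epithelium interval, as did 361 of 374 narrower intervals at that height. Of the 30 wide ones, 8 lay within 5 kb of a gene start (26.7%) and 5 held a CpG island (16.7%). Both shares were above those of the 374 narrower intervals, at 15.5% and 0.802%. Ctnna2, the gene of alpha-N-catenin, had 1476 bp centred 979 kb into the gene (chr6:76949521-76950996), with a mesenchyme peak value of 394 and an epithelium one of 150. Atrnl1, which encodes an attractin-like membrane protein, had 1309 bp with a mesenchyme peak value of 287 and an epithelium one of 91. The third highest interval, of 1666 bp and listed for the unnamed transcript EG432760, had 265 in mesenchyme and 63 in epithelium. Dlg2, a synaptic scaffold gene, had 1440 bp centred 1015 kb into the gene, with 262 in mesenchyme and 131 in epithelium.

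Others of high signal lay far from gene starts too. Slc4a4, a bicarbonate cotransporter gene, had a mesenchyme peak value of 253 and an epithelium one of 77. Gng4, a G protein subunit gene, had 208 in mesenchyme and 107 in epithelium, and Rbm20, a splicing regulator gene, had 194 in mesenchyme and 112 in epithelium. Sorl1, a sorting receptor gene, had 199 in mesenchyme and 73 in epithelium, and Sema5a, a semaphorin gene, had 154 in mesenchyme and 96 in epithelium. Shb, an adaptor protein gene, was an exception in place, since its interval covered the gene start with 235 in mesenchyme and 95 in epithelium. Vldlr, a lipoprotein receptor gene, was another, with a centre 1106 bp upstream of the start, a CpG island, and 176 in mesenchyme and 84 in epithelium. Further intervals of high signal, listed for Gpr141, Tdrd3, Dscr1l1 and Igk, had peak values of 210, 176, 172 and 169 in mesenchyme and 74, 47, 92 and 66 in epithelium.

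The epithelium library took no part in the selection. Of the 290 wide intervals, 124 overlapped an epithelium interval by at least 1 bp (42.8%, 37.2 to 48.5%), and 10 of these overlapped 2 or more. Over all 11436 mesenchyme intervals the share was 29.2%. Among intervals with a listed gene, 38.7% of wide ones (32.7 to 45.0%) were shared, against 32.6% of narrower ones weighted to the same peak values. Longer intervals meet another list more easily, and when the peak centre had to lie inside the epithelium interval the shares were 34.9% of wide intervals (29.1 to 41.1%) and 32.5% of weighted narrower ones. At like peak value, sharing thus differed by 2.38 percentage points when length could not contribute, which is within counting error.

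Sharing went with peak value, and it was less frequent in intervals with a CpG island. Shared wide intervals had a median peak value of 71.5 and a median length of 1447.5 bp, and those not shared had 25.5 and 1486 bp. Of wide intervals with a CpG island 25.4% were shared (29 of 114), and of those without 50.8% (63 of 124). In narrower intervals the shares were 9.47% with an island and 29.8% without. Islands themselves went with low peak values, at 63.8% of wide intervals of 21 or less and 16.7% of those of 72 or more. The split by island was not made at like peak value, so it cannot be told apart from that by peak value. The members of highest peak value with no epithelium interval were listed for Tbc1d15 (96), Scnn1b (75), Dlx6as (65), Nedd9 (61) and Tanc1 (61), and a second Dlx6as interval had 60.

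For 92 shared wide intervals with a peak value in both tables, the median was 71.5 in mesenchyme and 32 in epithelium. The median log2 ratio of mesenchyme to epithelium was 1.07, the same as the 1.07 of narrower intervals weighted to the same mesenchyme peak values. The libraries' relative scale is not stated, so the ratio describes deposited values and not a difference in binding. The epithelium intervals under wide ones had a median length of 662 bp (630 to 697 bp), against 568 bp under narrower intervals of similar peak value, a ratio of 1.17. In epithelium 16 of 3811 intervals reached 1200 bp, and 10 of these 16 overlapped a wide mesenchyme interval. Long epithelium intervals were found under Smad6 (1379 bp), Aurkb (1326 bp), Lhfp (1394 bp) and Dlg2 (1313 bp). Of the 124 wide intervals with an epithelium counterpart, 11 had one of 1200 bp or more.

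**Figure D5:**
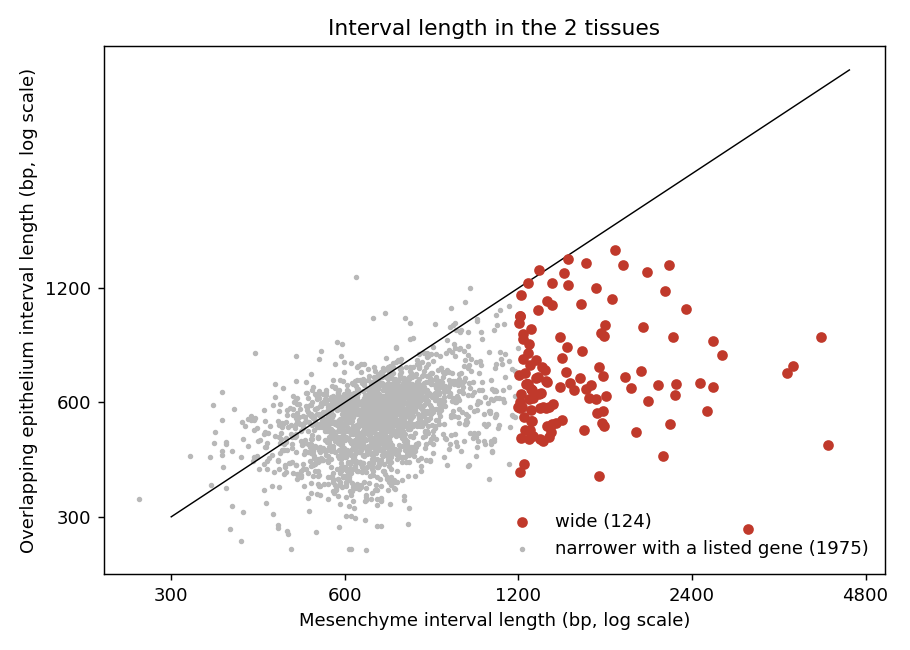
Length of the overlapping epithelium interval (the longest where there are several) against the length of the mesenchyme interval, in bp on log scales, for the 124 shared wide intervals (red) and 1975 shared narrower intervals with a listed gene (grey); the line marks equal length. The wide points lie below the line with few exceptions, at a median epithelium length of 671 bp (interquartile range 577.5 to 891 bp).

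Wide intervals lay close together. Of the 290, 116 (40.0%, 34.5 to 45.7%) had another mesenchyme interval within 5 kb, against 15.8% of narrower ones. When wide intervals at most 10 kb apart were joined, 60 of the 290 fell into 22 runs, of which 9 had 3 or more members. Beside Dlx5, Msx2, Ptch1, Amelx, Smad6, Dlx3 and Col1a1, these long runs lay at Nudt4, a gene of inositol phosphate metabolism, and at Midn and Cirbp. Nudt4 had 4 wide intervals with peak values from 16 to 24, and Midn had 4 with peak values from 14 to 26. Members of a run share a locus and are not independent of each other. Chromosome 11 held 38 of the wide intervals (13.1%), against 5.87% of narrower ones.

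The 1200 bp limit cuts a continuous range. Just inside it, among those with a named gene, were intervals at Dscr1l1 (1200 bp, peak value 172), Dgki (1201 bp, 55), Map4k4 (1206 bp, 62), Bambi (1208 bp, 53) and Emp1 (1209 bp, 111). Just outside were Ppih (1199 bp, peak value 74), Serinc5 (1198 bp, 53), Pcsk2 (1198 bp, 351), Smad6 (1198 bp, 34) and Kdelr3 (1196 bp, 42). Of the 52 wide intervals without a listed gene 32 were shared (61.5%, 48.0 to 73.5%), and their peak values are unknown. The 8 long intervals that touched an input interval, and so were left out, included 16664 bp at Sfi1, 6031 bp at Mirn715 with a peak value of 347, and 2992 bp at Dlx1 and Dlx2.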

How the data were processed

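Sp6 chromatin immunoprecipitation and input were sequenced from dental mesenchyme and epithelium, 1 library per group (4 libraries), with groups taken from the sample titles. The submitters' processing notes name MACS 1.3.7.1 and the genome build mm9; the sources used here do not name the aligner, thresholds or scaling. The authors deposited an interval list per library and, for the Sp6 libraries, tables with a peak value and an average value (signal per bin, median bin width 32 bp per the files), CpG islands, genes and distances from the peak centre to the gene start. Read depth is unknown, so intervals on shares cover counting error only.

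Members and gene lists were chosen with earlier results of these data known. Coordinates of intervals are mm9, counted from 1. Overlap meant at least 1 bp. Narrower intervals (under 1200 bp, off the inputs) were weighted to the wide ones' shares of 5 strata of peak value. Shares carry Wilson 95% intervals, medians order-statistic ones. Genes named are the 15 widest and 15 highest intervals, up to 5 genes per list (11 lists), 6 by epithelium peak value, 6 not shared, the 5 genes with most intervals, and 5 on either side of the limit; unnamed transcripts were skipped. Some other genes, such as Egr1, Eif4a1 and Rpl3, were named after their values were seen. Of 302 names, 277 matched RefSeq (GRCm38.p6). A gene's direction came from the signed distances or RefSeq, which were the same in 1781 of 1786 genes with both. The overlap search and weighting were tested on simulated data. Python 3.11.15 with pandas 2.3.3, numpy 2.4.6 and scipy 1.17.1 was used.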

Additional observations from a re-analysis of the deposited data

How the results depend on the processing

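Of 85 values recomputed under 13 alternatives, 63 stayed within the counting interval of the reported value (or, for the number of wide intervals, within 1.5 times of it). A further 22 moved beyond it and 0 were counted as reversed. The ratio of peak to average value, wide over narrower, was near equality at 0.999. It was 1.01 at 1000 bp and without strata, and 1.10 at peak values of 30 or more. This crossing of 1 was not counted as a reversal. A limit of 1000 bp gave 636 wide intervals, with a CpG island in 40.3% (33.4 percentage points above narrower ones) and 54.7% within 5 kb of a gene start. A limit of 1500 bp gave 127, with an island in 55.7% (47.1 points above narrower ones), 68.7% within 5 kb of a start (44.9 points above) and a median ratio of peak to average value of 2.32. With annotated intervals of peak value 30 or more there were 144 wide ones, of which 59.7% were shared with epithelium, 38.2% held an island and 54.2% lay within 5 kb of a start. There the ratio of peak to average value was 3.16, and 1.10 times that of narrower intervals. A window of 250 bp on each side of the peak centre gave 35.3% shared. Asking for 2 or more CpG islands left 4.62% of wide intervals (4.35 points above narrower ones). A start window of 1 kb held 34.9% (26.2 points above), and one of 10 kb 72.7%. Other strata, the 50% overlap and the handling of input intervals moved no value beyond its interval; leaving out intervals within 1 kb of an input interval changed none. No paired analysis was possible because each group has 1 library, and for the same reason no library could be left out. Unknown read depth and scaling limit every comparison of signal between the tissues.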
